A study of Mus musculus with 12 samples.

Results

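Messenger RNA of 10 transcription factor genes tied to the origin of blood and endothelium was followed across 4 sorted cell types of the E7.25 mouse embryo, around gastrulation. The genes were Tal1, Lmo2, Lyl1, Runx1, Etv2, Fli1, Erg, Fev, Ets1 and Elk3. They were found by matching the Ensembl gene identifiers of the count files, with version numbers dropped, to these symbols, which picked out 10 of 38924 genes. The list had been drawn up with the levels of these genes in the same libraries known, with emphasis on hematopoietic mesoderm. The levels and differences of the 10 genes are therefore given as a description, without p-values. All 10 were among the 14170 genes that passed the expression filter, which asks for a minimum count in at least 3 libraries, so that the level in 1 type alone can carry a gene through.

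All embryos came from the Foxa2Cre:Rosa26-YFP line, in which Cre expressed from Foxa2 switches on a yellow fluorescent protein (YFP) reporter at the Rosa26 locus, so that cells keep YFP once they have expressed Foxa2. The 4 types, with 3 libraries each, were cardiac mesoderm that carried YFP (YFP+; ventricular, in the labels), cardiac mesoderm that did not (YFP-; non-ventricular, in the labels), EPCAM+ endoderm and KDR+ hematopoietic mesoderm. The number of embryos per library is not given in the sources used here, and nothing says that replicates came from separate litters, so the spread between libraries may be in part technical. No other allele or treatment is named.

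The hemangioblast is the mesodermal precursor proposed to give rise to both blood and endothelial cells. TAL1 and its close relative LYL1 are basic helix-loop-helix proteins that bind DNA with E-protein partners, and LMO2 is a LIM-domain bridge that joins them to GATA factors through LDB1. ETS factors share a winged helix-turn-helix domain that recognises a GGA core. Among them ETV2 acts early and briefly in the specification of blood and endothelium, whereas FLI1 and ERG act in both lineages for longer. RUNX1, which binds DNA with its partner CBFB, is needed for blood to form from endothelium. These genes were read here against mesoderm sorted for a cardiac fate and against endoderm.

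Promoter windows are shown because most of the genes had their highest mean in the same type. RefSeq windows (GRCm38.p6) covering 250 bases before a start site were matched by symbol for 7 of the 10 genes, 11 windows in all. Each was searched on both strands. For ETS factors the letters were CGGAAG and also AGGAAG. For GATA factors they were AGATAA, besides the forms TGATAA and, with another end, AGATAG. The E-box letters were CAGCTG and also CAGATG, and for RUNX factors TGTGGT was used. None of the motifs overlaps another within a match shown here, and the motifs were picked with the levels known. The 4 windows below run 5′ to 3′ on the strand of the gene, and capitals mark the matches. The Tal1 window (chr4:115056176-115056425, + strand) ends at the annotated start of the gene and has a GATA match. The Etv2 window (chr7:30635853-30636102, - strand) and the Lyl1 window (chr8:84701207-84701456, + strand) also end at the annotated gene start, and each has an ETS match. The Erg window (chr16:95459349-95459598, - strand) lies before a start 127245 bases inside the annotated gene and has both a GATA and an ETS match. All windows shown have a match. Among those not shown, the Fev window has a GATA match, and the Elk3 window and the first Runx1 window each have an ETS match. No match was found in the Erg window at the annotated gene start, another Erg window, or the second windows of Tal1 and Runx1.
Tal1: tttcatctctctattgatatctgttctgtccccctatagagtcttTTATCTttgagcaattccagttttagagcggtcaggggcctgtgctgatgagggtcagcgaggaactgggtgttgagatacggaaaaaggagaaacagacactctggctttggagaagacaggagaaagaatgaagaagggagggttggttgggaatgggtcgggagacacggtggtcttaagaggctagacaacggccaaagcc
Etv2: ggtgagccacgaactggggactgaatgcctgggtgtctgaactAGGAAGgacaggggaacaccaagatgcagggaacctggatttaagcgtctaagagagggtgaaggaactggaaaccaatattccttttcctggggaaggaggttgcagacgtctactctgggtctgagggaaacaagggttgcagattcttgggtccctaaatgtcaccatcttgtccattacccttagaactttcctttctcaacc
Lyl1: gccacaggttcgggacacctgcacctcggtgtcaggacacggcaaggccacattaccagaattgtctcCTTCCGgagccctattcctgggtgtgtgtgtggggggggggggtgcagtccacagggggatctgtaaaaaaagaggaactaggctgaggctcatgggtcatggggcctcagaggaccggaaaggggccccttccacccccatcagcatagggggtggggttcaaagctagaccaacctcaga
Erg: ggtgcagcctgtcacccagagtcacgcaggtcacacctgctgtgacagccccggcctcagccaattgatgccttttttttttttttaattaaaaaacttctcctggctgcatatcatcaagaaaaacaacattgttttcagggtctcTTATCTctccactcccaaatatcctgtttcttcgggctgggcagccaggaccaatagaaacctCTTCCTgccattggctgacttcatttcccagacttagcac

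ETS letters were in 5 of the 11 windows, beside 39.2% of all 32851 RefSeq windows of this length. GATA letters were in 3 of 11, beside 22.3% of all windows. E-box letters were in 0 of 11, beside 25.5%, and RUNX letters in 0 of 11, beside 14.0%. A match describes the letters only, and the shares in 11 windows from 7 genes were not tested.

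Gene counts came to 4472800 to 7888631 per library, so 3 counts stood for 0.380 to 0.671 CPM (the gene's reads per 1000000 reads counted in genes). Kdr and Epcam were each highest in the type sorted for them. Kdr, the VEGF receptor used to sort hematopoietic mesoderm, was at 617 to 880 CPM there and at 454 to 606 CPM in the cardiac fractions, so that hematopoietic mesoderm lay above both by a small margin. Pdgfra, a receptor of early cardiac and other mesoderm, was at 1.79 to 44.1 CPM in hematopoietic mesoderm and 211 to 397 CPM in the cardiac fractions. Epcam was at 216 to 253 CPM in endoderm and at most 62.8 CPM elsewhere. Foxa2 was at 55.1 to 66.4 CPM in endoderm and at most 5.72 CPM elsewhere. Endoderm also had 1669 to 4931 CPM over 8 extra-embryonic visceral endoderm markers, beside at most 62.0 CPM elsewhere. Over 7 epiblast markers it had 1634 to 1696 CPM, beside 381 to 1058 CPM. Over 7 extra-embryonic ectoderm markers it had 88.1 to 205 CPM, beside at most 63.0 CPM. The part of such cells in the endoderm values was not tested. One library stood apart within its type. Hematopoietic mesoderm replicate 3 had 48.3 CPM over a list of 16 blood genes, where replicates 1 and 2 had 550 and 573 CPM. This blood sum was mostly Ikzf1 (32.6 CPM in replicate 3, 349 and 381 CPM in the others) and Myb (5.36 CPM, beside 94.3 and 80.8). Of the 16 genes, 11 were at 0 in replicate 3, and 8 and 5 in replicates 1 and 2. Over 12 cardiac mesoderm markers replicate 3 had 1108 CPM, where replicates 1 and 2 had 474 and 484 CPM. The cardiac sum in replicate 3 was nearly all Tbx20 (473 CPM), Hand1 (380) and Gata4 (232). Mesp1, Mesp2, Tbx5 and Wnt2 were at 0 in that replicate, and Hand2, Nkx2-5, Myl7 and Isl1 at 0.383 to 3.83 CPM. Smarcd3 was at 16.5 CPM there, beside 0 and 0.171 CPM in replicates 1 and 2. The part of replicate 3 in the levels below was not tested, and values are given with and without it where they turn on it. YFP+ replicate 2 had 514 CPM over 20 endothelial genes, and the other YFP+ libraries 147 and 247 CPM.

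In hematopoietic mesoderm 9 of the 10 genes had their highest mean, beside 26.2% of all tested genes; the exception was Etv2. In 7 of them (Tal1, Lmo2, Lyl1, Runx1, Fli1, Fev and Ets1) each hematopoietic mesoderm library was above all 9 other libraries, which was so for 1.59% of tested genes. Nothing is read from these shares, since the genes were chosen on these levels. In bulk samples of this kind, fewer cells that express a gene and less RNA per cell cannot be told apart.

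Tal1 (ENSMUSG00000028717.6, chr4:115056426-115071755, + strand; all gene positions are from GENCODE vM21 on GRCm38) is the master helix-loop-helix factor of blood specification. It was at 437, 351 and 247 CPM in hematopoietic mesoderm replicates 1, 2 and 3. In YFP+ cardiac mesoderm it was at 13.2, 170 and 21.3 CPM, and in YFP- cardiac mesoderm at 63.6, 86.1 and 19.6 CPM. Endoderm had 0.837, 0.688 and 3.30 CPM. All hematopoietic mesoderm libraries lay above the rest, the 2 cardiac fractions overlapped each other, and endoderm lay below all mesoderm libraries. The mean of 345 ± 95.2 CPM (SD, n = 3) in hematopoietic mesoderm was 5.06 times that of YFP+ cells (68.2 ± 88.3) and 6.12 times that of YFP- cells (56.4 ± 33.8). The YFP+ mean rests on replicate 2 and was 17.2 CPM without it.

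Lmo2 (ENSMUSG00000032698.9, chr2:103957986-103981878, + strand), the bridging subunit of the TAL1 complex, was at 184, 238 and 103 CPM in hematopoietic mesoderm. YFP+ cells had 0.200, 11.2 and 0.715 CPM, YFP- cells 6.60, 27.6 and 32.7 CPM, and endoderm 6.19, 8.53 and 12.9 CPM. Unlike Tal1, Lmo2 was thus no lower in endoderm than in YFP+ cardiac mesoderm, and the 3 types other than hematopoietic mesoderm overlapped one another. The fitted log2 difference of hematopoietic mesoderm was 5.46 ± 1.16 (SE) over YFP+ cells, 3.07 ± 1.03 over YFP- cells and 4.40 ± 1.10 over endoderm. The YFP+ mean of 4.04 CPM rests on replicate 2 and was 0.458 CPM without it, which makes the first of these larger.

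Lyl1 (ENSMUSG00000034041.4, chr8:84701457-84704715, + strand), the relative that can stand in for part of TAL1's role in blood, was at 11.8, 24.9 and 35.6 CPM in hematopoietic mesoderm. YFP- cells had 5.04, 2.39 and 3.41 CPM, from 29, 17 and 23 counts. The YFP+ libraries had 1, 0 and 0 counts and the endoderm libraries 2, 2 and 0, which are at or under the floor of 3 counts, and no fold is given against them. Lyl1 was the sole member whose YFP+ libraries all lay below the YFP- libraries; 8.26% of all tested genes had that order. Its exons share 4 bases with Nfix on the opposite strand, and the strand setting of the counting is not given in the sources used here.

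Runx1 (ENSMUSG00000022952.10, chr16:92601466-92826149, - strand) was at 685, 936 and 467 CPM in hematopoietic mesoderm. YFP+ cells had 4.60, 94.0 and 22.2 CPM, YFP- cells 40.5, 39.7 and 22.0 CPM, and endoderm 25.1, 23.9 and 49.8 CPM. Outside hematopoietic mesoderm the means were alike (40.2 ± 47.3, 34.0 ± 10.5 and 33.0 ± 14.6 CPM) and all 3 types overlapped. The 3 log2 differences of hematopoietic mesoderm were also close to each other, at 4.14 ± 0.78, 4.46 ± 0.79 and 4.56 ± 0.80. The YFP+ mean fell to 13.4 CPM without replicate 2. An antisense gene, Gm26626, shares 106 exon bases with Runx1, and reads from there cannot be told apart.

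**Figure D1:**
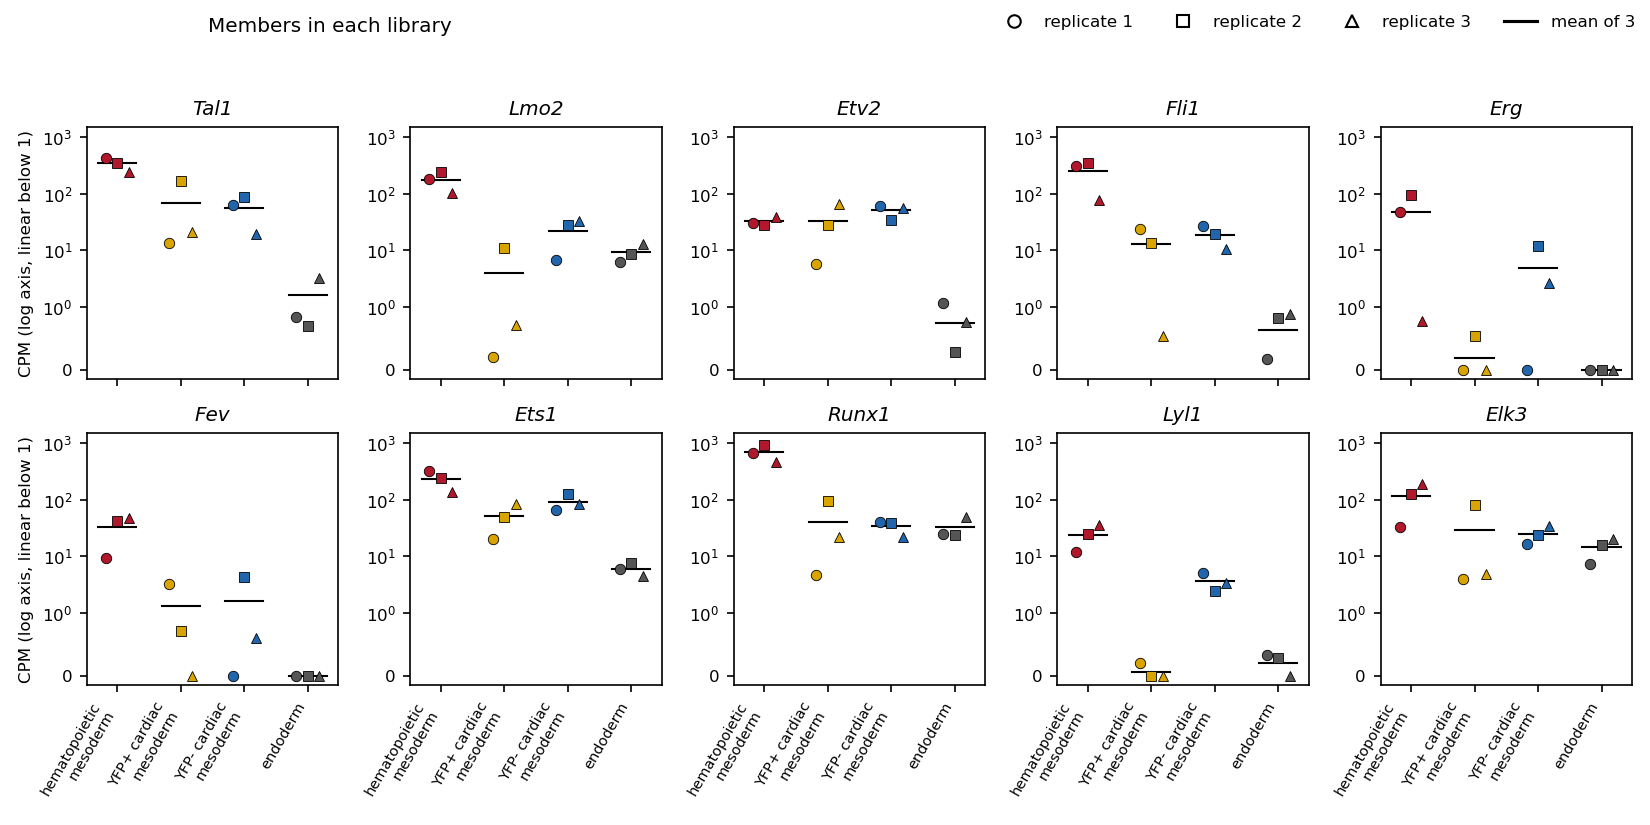
Each panel plots one gene, with CPM on the vertical axis (log scale, linear below 1) and the 4 sorted types along the horizontal axis; circles, squares and triangles are replicates 1, 2 and 3, and the line is their mean. Hematopoietic mesoderm lies above every other library for Tal1, Lmo2, Fli1, Fev, Ets1, Runx1 and Lyl1, and Etv2 is about level in the 3 mesoderm types.

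Etv2 (ENSMUSG00000006311.8, chr7:30633616-30635852, - strand) broke from the other members. It was at 30.2, 27.8 and 38.9 CPM in hematopoietic mesoderm, at 5.80, 28.1 and 65.3 CPM in YFP+ cells and at 61.1, 34.3 and 56.5 CPM in YFP- cells. Endoderm had 1.17, 0.275 and 0.761 CPM. The 3 mesoderm types overlapped one another and all 9 of their libraries lay above the 3 of endoderm. The log2 difference of hematopoietic mesoderm was 0.01 ± 0.79 over YFP+ cells and -0.52 ± 0.79 over YFP- cells, errors that leave room for a change in either direction. The mean of YFP+ cells was 44.9 times, and that of YFP- cells 68.9 times, the endoderm mean of 0.736 ± 0.449 CPM.

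Fli1 (ENSMUSG00000016087.7, chr9:32422204-32542861, - strand), which maintains endothelial and blood stem cell programs, was at 310, 356 and 76.4 CPM in hematopoietic mesoderm. YFP+ cells had 24.0, 13.5 and 0.537 CPM, YFP- cells 27.3, 19.1 and 10.4 CPM, and endoderm at most 0.887 CPM. Hematopoietic mesoderm replicate 3 was the lowest of its type and still above every library of the other types. The 2 cardiac fractions overlapped. Log2 differences were 4.31 ± 0.99 over YFP+ cells and 3.81 ± 0.97 over YFP- cells.

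Erg (ENSMUSG00000040732.12, chr16:95359169-95586593, - strand), a close relative of FLI1 that keeps endothelial identity, was at 48.3, 96.1 and 0.766 CPM in hematopoietic mesoderm. Replicate 3 was thus close to the other types, 125 times below replicate 2. YFP- cells had 0, 11.7 and 2.67 CPM and overlapped hematopoietic mesoderm through that replicate. YFP+ replicate 2 had 3 counts, and the other YFP+ libraries and all endoderm libraries had 0. Against a floor of 3 counts per endoderm library, the hematopoietic mesoderm mean was at least 112-fold higher. That bound rests on replicates 1 and 2, since replicate 3 had 4 counts. The mean of 48.4 ± 47.7 CPM became 72.2 CPM without replicate 3.

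Fev (ENSMUSG00000055197.4, chr1:74881509-74885419, - strand), a short ERG-like factor best known from serotonergic neurons, was at 9.17, 41.7 and 48.1 CPM in hematopoietic mesoderm. YFP+ cells had 3.20, 0.711 and 0 CPM and YFP- cells 0, 4.36 and 0.594 CPM. Endoderm had no count in any library, which put the hematopoietic mesoderm mean at least 76.4-fold higher against the same floor. Fev was highest in replicate 3, where Erg was lowest, and lowest in replicate 1.

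Ets1 (ENSMUSG00000032035.9, chr9:32636221-32757820, + strand), a founding ETS factor of endothelium and lymphoid cells that neighbours Fli1, was the most graded of the set. Hematopoietic mesoderm had 317, 248 and 136 CPM, YFP- cells 64.8, 126 and 83.6 CPM, YFP+ cells 20.4, 48.7 and 84.2 CPM, and endoderm 5.86, 7.71 and 4.56 CPM. Hematopoietic mesoderm lay above both cardiac fractions, though replicate 3 exceeded the highest YFP- library by a small margin. The cardiac fractions overlapped, and endoderm lay below all others. Log2 differences of hematopoietic mesoderm had the smallest errors of the set, at 2.23 ± 0.51, 1.46 ± 0.49 and 5.44 ± 0.59 over YFP+ cells, YFP- cells and endoderm.

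Elk3 (ENSMUSG00000008398.8, chr10:93247414-93311135, - strand) encodes a ternary complex factor that partners with SRF and is active in vessels. It was at 32.4, 127 and 191 CPM in hematopoietic mesoderm, with replicate 1 the lowest. YFP+ cells had 3.997, 79.4 and 4.83 CPM, YFP- cells 16.7, 23.6 and 34.3 CPM, and endoderm 7.36, 15.8 and 20.2 CPM. Hematopoietic mesoderm overlapped both cardiac fractions through its replicate 1 and lay above endoderm. Without YFP+ replicate 2 the YFP+ mean was 4.41 CPM in place of 29.4 CPM. Elk3 shares 316 exon bases with Cdk17 on the opposite strand, so part of its count may belong to that gene.

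**Figure D2:**
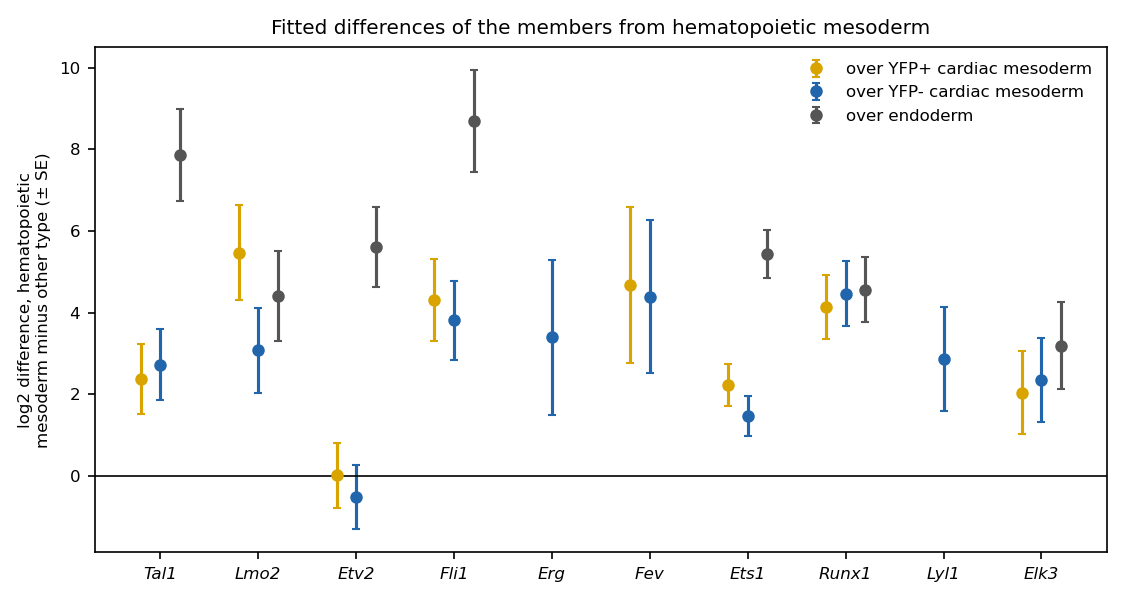
The vertical axis is the edgeR log2 difference of hematopoietic mesoderm minus another type, with bars of 1 SE, for each gene along the horizontal axis; yellow is over YFP+ cardiac mesoderm, blue over YFP- cardiac mesoderm and grey over endoderm. Points are left out where no library of the other type had more than 3 counts (Erg and Lyl1 over YFP+ cells, Erg, Fev and Lyl1 over endoderm). Etv2 sits at 0.01 and -0.52 against the cardiac fractions and at 5.60 against endoderm.

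Levels of different genes can be compared only per length of exon. On this scale (CPM per kilobase of exon) hematopoietic mesoderm held Lmo2 at 80.8, Tal1 at 78.8, Fli1 at 71.0 and Runx1 at 57.9. The remaining members were at 30.8 for Etv2, 27.6 for Ets1, 25.7 for Elk3, 20.4 for Fev, 14.0 for Erg and 13.4 for Lyl1. Only Runx1 and Etv2 had libraries that did not overlap, and the other 8 pairs of neighbours in the order did. The 4 highest means were not clear of all the others, since Fli1 in replicate 3 (21.9) was below Etv2 in every library (26.6 to 37.1). The order was another one in the cardiac fractions, where Etv2 came first, at 31.5 in YFP+ cells and 48.3 in YFP- cells, with Tal1 next at 15.6 and 12.9. The gap between Etv2 and Tal1 was clear of overlap in YFP- cells and not in YFP+ cells. In endoderm Lmo2 (4.26), Elk3 (3.18) and Runx1 (2.74) came first per kilobase and overlapped one another, and they did not overlap with Ets1 (0.713), the next.

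**Figure D3:**
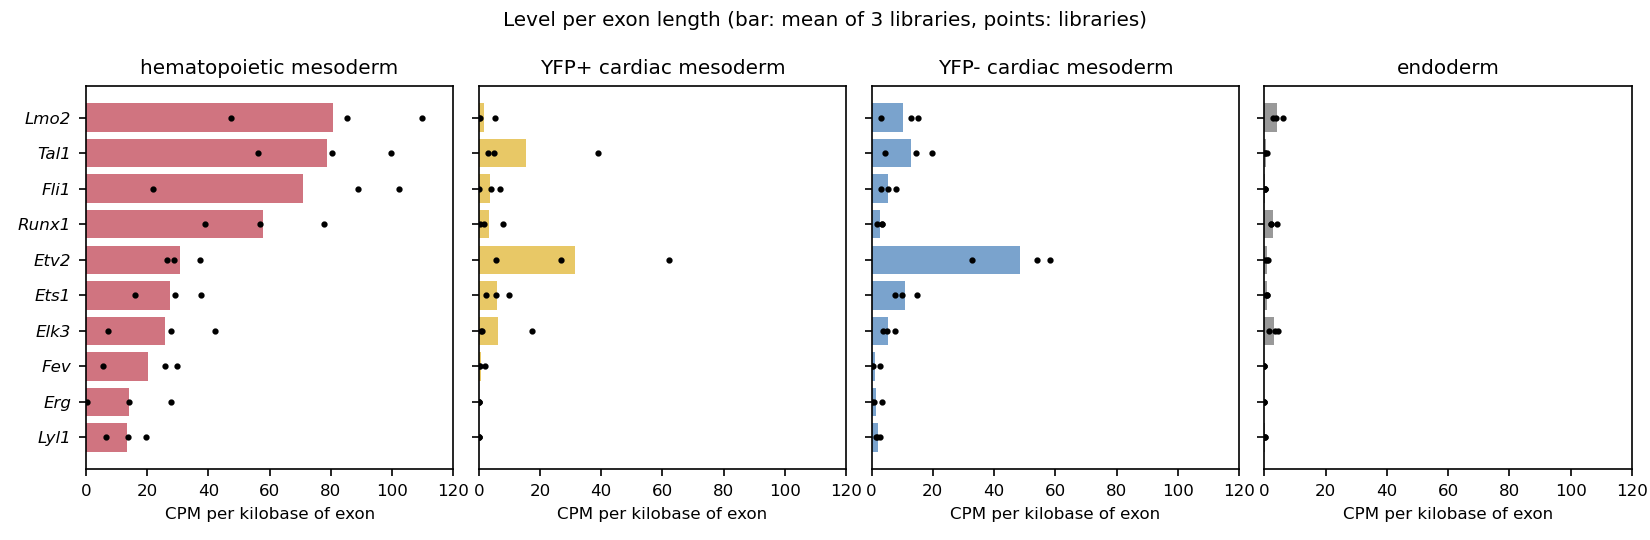
Bars give the mean CPM per kilobase of exon of 3 libraries and points the libraries, with 1 panel per sorted type and the genes in the order of hematopoietic mesoderm. Lmo2, Tal1, Fli1 and Runx1 lead in hematopoietic mesoderm (57.9 to 80.8), and Etv2 leads in both cardiac fractions (31.5 and 48.3).

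The members differed in how they were spread over the hematopoietic mesoderm libraries. Their sum was 2066, 2447 and 1344 CPM in replicates 1, 2 and 3. Tal1, Lmo2, Runx1, Fli1, Erg and Ets1 were lowest in replicate 3, whereas Lyl1, Fev and Elk3 were lowest in replicate 1 and highest in replicate 3. The highest library exceeded the lowest by 1.40 times for Etv2, 1.77 for Tal1, 2.00 for Runx1, 2.31 for Lmo2 and 2.33 for Ets1. The ratio was 3.01 for Lyl1, 4.66 for Fli1, 5.25 for Fev, 5.90 for Elk3 and 125 for Erg. It was at most 3 in 5 of the 10, beside 49.9% of all genes at this level. The median ratio of the 8656 genes with a mean of at least 10 CPM in this type was 3.01, and 23.5% of them reached 10, so a wide spread was common in this type. Beside these ratios, replicate 3 had 0.192 CPM of the erythroid factor Gata1 (68.9 and 45.9 CPM in replicates 1 and 2), 0 of the endothelial receptor Tie1 (40.2 and 19.6) and 380 CPM of Hand1, a factor of cardiac and extra-embryonic mesoderm (44.0 and 80.2). Tie1 did not stand for all endothelial genes: Sox7 was highest in replicate 3 (360 CPM), and Cdh5 was at 133 CPM there (93.9 and 158). The 20 endothelial genes summed to 1142 CPM in replicate 3, and to 1728 and 1935 CPM in replicates 1 and 2. Of the 20, 8 were at 0 in replicate 3, and 5 and 2 in replicates 1 and 2.

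YFP+ cardiac mesoderm was uneven in another way. Of the 6 members with a mean of at least 10 CPM there, the highest library was at least 10 times the lowest in 5 (Tal1, Etv2, Fli1, Runx1 and Elk3), beside 15.5% of all genes at that level. Tal1, Lmo2, Runx1 and Elk3 were highest in YFP+ replicate 2, Etv2 and Ets1 in replicate 3, and Fli1 and Fev in replicate 1. Replicate 2 also had the highest Gata2 (71.9 CPM, beside 4.60 and 14.7), Pecam1 (57.4, beside 0 and 4.11) and Eng (46.5, beside 3.997 and 0.179) of the YFP+ libraries. Whether these partner and endothelial genes bear on the member levels of that library was not tested. In YFP- cells 0 of 7 members, and in endoderm 0 of 2, spread as widely, beside 4.87% and 0.339% of all genes.

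**Figure D4:**
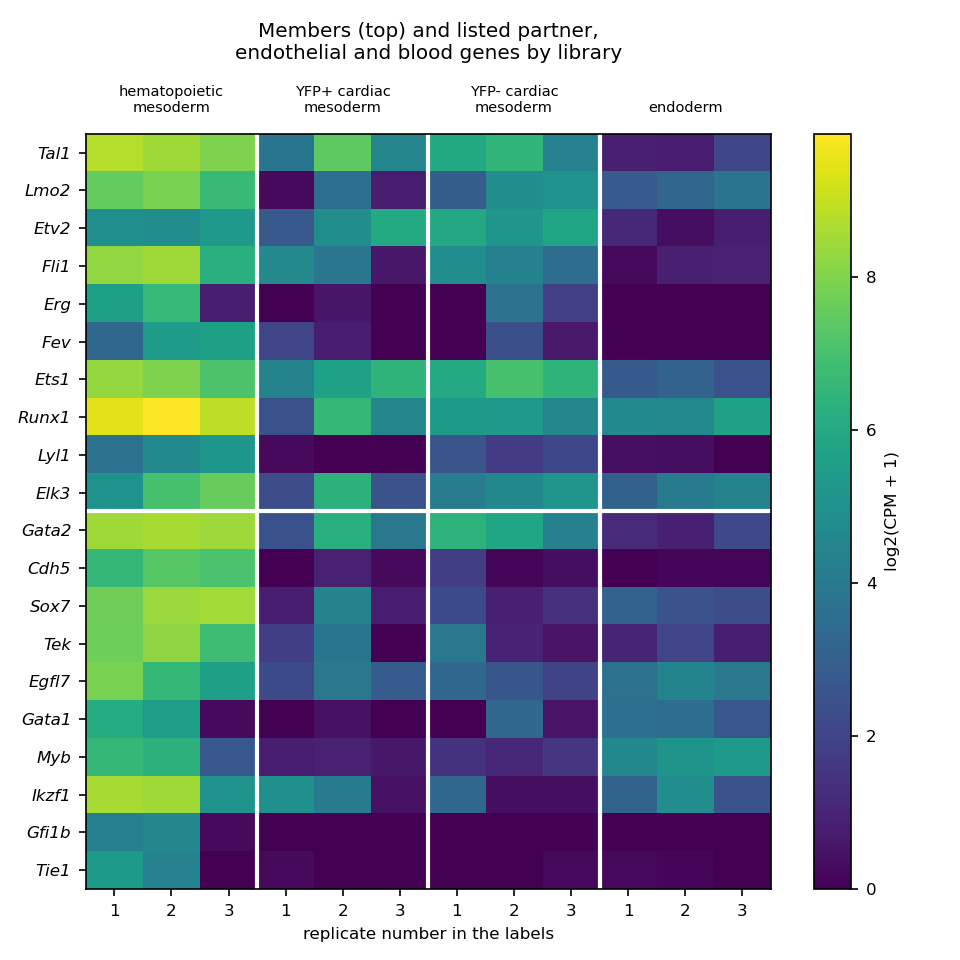
Colour gives log2(CPM + 1) for each gene (rows) in each library (columns, grouped by sorted type and replicate number); the 10 members are above the white line, and below it are 10 genes of the partner, endothelial and blood lists, chosen after their values were seen. Hematopoietic mesoderm replicate 3 is dark for Erg, Gata1, Gfi1b and Tie1 and bright for Cdh5, Sox7 and Gata2, and YFP+ replicate 2 is brighter than its replicates for Tal1, Runx1, Elk3 and Gata2.

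In edgeR's quasi-likelihood fit over the 12 libraries, at a Benjamini-Hochberg adjusted p under 0.05 over all 14170 genes, 5 members (Lmo2, Fli1, Ets1, Runx1 and Lyl1) counted as higher in hematopoietic mesoderm than in YFP+ cells, beside 0.635% of tested genes. Against YFP- cells it was 1 (Runx1), beside 0.191%, and against endoderm 9 (all but Elk3), beside 2.42%. Between YFP+ and YFP- cells no member counted, and no gene of the 14170 did; 1062 genes, 2 of them members, had an unadjusted p under 0.05, and DESeq2 counted 115 genes and 1 member. With voom and library quality weights the counts against YFP+ and YFP- cells were 0 and 4. The rule for choosing the members used these contrasts, so nothing is read from the counts. The 3 comparisons share the hematopoietic mesoderm libraries. The median log2 difference of the 10 members was 4.23 over YFP+ cells, 2.97 over YFP- cells and 6.27 over endoderm, beside -0.03, -0.02 and -0.07 over all genes. These medians include the fitted values of genes at 0 in the other type.

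All hematopoietic mesoderm libraries were above those of YFP+ cells in 8 of 10 members (5.46% of all genes), above those of YFP- cells in 7 (4.81%) and above those of endoderm in 10 (7.52%). Without hematopoietic mesoderm replicate 1 these became 9 and 8 for the cardiac fractions, since Elk3 joined. Without replicate 3 they became 8 and 8, since Erg joined against YFP- cells. Leaving out a library can only add to such counts. The shares of all genes above are for all libraries, so they are no measure for these smaller sets.

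Genes that work with the members, but are not members, were taken from 4 lists: 20 other ETS factors, 17 partners and paralogues of the TAL1 complex and RUNX1, 20 endothelial genes and 16 blood genes. Of these 73 genes 55 were tested. Over YFP+ cells 4 rose and 1 fell in hematopoietic mesoderm, over YFP- cells 5 rose and 0 fell, and over endoderm 6 rose and 2 fell. The share of all tested genes that changed in either direction was 1.79%, 0.593% and 5.65%. Between the cardiac fractions 0 of the 55 changed in edgeR, with 1 at an unadjusted p under 0.05 and 1 called by DESeq2. Endothelial genes were known to be high in hematopoietic mesoderm before the lists were made, so their counts are no independent evidence of the direction.

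Of the other ETS factors 17 were tested, and 0 rose in hematopoietic mesoderm over any of the 3 types, while 1 fell against YFP+ cells, 0 against YFP- cells and 2 against endoderm. Their median log2 difference was -0.01, 0 and -0.62 in that order. At an unadjusted p under 0.05, in either direction, there were 7, 6 and 10 of them. The share of all tested genes at that threshold is not given here, so nothing is read from these numbers. Over all 20 listed, tested or not, 8 had all hematopoietic mesoderm libraries below those of endoderm, and 1 had them above. Of all tested genes 26.3% had them below, a share over another kind of set, since the 20 include untested genes. Etv5, a PEA3-type factor that responds to FGF, was at 26.8, 8.71 and 39.5 CPM in hematopoietic mesoderm, 73.9, 96.3 and 180 CPM in YFP+ cells and 138, 161 and 152 CPM in endoderm. In YFP- cells it was at 95.9 to 142 CPM, also above every hematopoietic mesoderm library, without passing the test. It fell by 2.16 ± 0.50 on the log2 scale against YFP+ cells (edgeR adjusted p = 0.0499) and by 2.39 ± 0.51 against endoderm (edgeR adjusted p = 0.0210). Leaving out 1 library at a time, 10 of the 12 such fits lost the former call and 4 the latter, and the former was also lost under RLE scaling, voom and the fit of 2 types. Ehf, an epithelial ETS factor, had no count in hematopoietic mesoderm and 9.87, 7.16 and 34.7 CPM in endoderm (edgeR adjusted p = 0.0469), a call lost in 11 of the 12. Ets2, a widely expressed relative of Ets1, was at 163, 135 and 42.9 CPM in hematopoietic mesoderm and 15.6 to 39.1 CPM in the cardiac fractions without passing the test, and is named after its values were seen.

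Of the 17 partners and paralogues 1 rose, over endoderm, and 0 passed the test over the cardiac fractions. There 8 of 17 had an unadjusted p under 0.05 in each, in either direction, again without a share of all genes beside it. Gata2, the GATA factor of early blood progenitors that joins TAL1 and LMO2, was at 355, 384 and 342 CPM in hematopoietic mesoderm, 4.60, 71.9 and 14.7 CPM in YFP+ cells, 82.5, 54.7 and 18.7 CPM in YFP- cells and 1.34, 0.826 and 3.55 CPM in endoderm. Replicate 3 did not stand apart here. The log2 difference over endoderm was 7.70 ± 1.05 (edgeR adjusted p = 0.00156), with all 3 libraries above, and it passed in each of the 12 leave-one-out fits. Over YFP+ cells the difference was 3.61 ± 0.85 (edgeR adjusted p = 0.0514). Tcf3 and Cbfb, named after their values were seen, are partners used in many cell types. Tcf3, an E-protein, was at 150 ± 36.2 CPM in hematopoietic mesoderm, 136 ± 27.9 in YFP+ cells, 172 ± 32.1 in YFP- cells and 150 ± 15.6 in endoderm. Cbfb, the partner of RUNX1, was at 339 ± 54.1 CPM in hematopoietic mesoderm and 198 ± 59.1, 239 ± 34.8 and 227 ± 5.67 CPM in the other types, with log2 differences of 0.82 ± 0.23, 0.63 ± 0.23 and 0.76 ± 0.23 that did not pass (edgeR adjusted p = 0.0913, 0.193 and 0.0680).

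Endothelial genes gave most of the rises, with 3 of 15 tested over YFP+ cells, 4 over YFP- cells and 5 over endoderm. Cdh5, the adhesion protein of endothelial junctions, was at 93.9, 158 and 133 CPM in hematopoietic mesoderm and at most 2.61 CPM in any other library. Its log2 differences were 8.43 ± 1.33, 7.11 ± 1.24 and 10.3 ± 1.46 over YFP+ cells, YFP- cells and endoderm (edgeR adjusted p = 0.00961, 0.0283 and 0.00191). All 3 rest on libraries with few counts in the lower type, with 6, 18 and 2 counts in all of YFP+ cells, YFP- cells and endoderm. Sox7, an early endothelial SOX factor, was at 210, 332 and 360 CPM there and at most 20.4 CPM elsewhere, with log2 differences of 5.40 ± 1.08, 7.33 ± 1.20 and 5.94 ± 1.11 (edgeR adjusted p = 0.0302, 0.0209 and 0.0104). Egfl7, a secreted vessel protein, had 233, 95.4 and 47.3 CPM and differences of 4.01 ± 0.79, 4.54 ± 0.81 and 3.16 ± 0.76 (edgeR adjusted p = 0.0278, 0.0301 and 0.0326).

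Further endothelial genes passed in 1 comparison each. Flt1, a VEGF receptor, rose over YFP- cells by 2.37 ± 0.44 on the log2 scale (edgeR adjusted p = 0.0340), from between 79.2 and 122 CPM to between 172 and 672 CPM, and in endoderm it was at 258 to 328 CPM. Tek, the angiopoietin receptor, rose over endoderm by 7.10 ± 1.62 (edgeR adjusted p = 0.0273), and was at 205, 298 and 112 CPM in hematopoietic mesoderm. It was also low in the cardiac fractions, at most 13.3 CPM in YFP+ and 14.4 CPM in YFP- cells, though neither difference passed. Nfatc1, known from endocardium, rose over endoderm by 3.05 ± 0.52 (edgeR adjusted p = 0.00600), from between 12.05 and 12.7 CPM to between 61.3 and 132 CPM. Calls of Cdh5 over YFP+ cells and endoderm and of Nfatc1 stayed in all 12 fits without 1 library; Sox7 lost its call in 6, 4 and 3 of the 12 in the order given above, Egfl7 in 6, 7 and 4, Flt1 in 7, Tek in 4 and Cdh5 over YFP- cells in 5. Fitting the pair of types alone ended the calls of Sox7 and Egfl7 over YFP+ cells and of Cdh5, Egfl7 and Flt1 over YFP- cells, and voom that of Egfl7 over YFP+ cells.

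Of 16 blood genes 6 could be tested, and Myb was the one that passed. Myb, a factor of blood progenitor growth, was at 94.3, 80.8 and 5.36 CPM in hematopoietic mesoderm, at 0.537 to 0.888 CPM in YFP+ cells and at 1.12 to 1.93 CPM in YFP- cells. Endoderm had 23.4 to 38.9 CPM. The log2 difference was 6.33 ± 1.08 over YFP+ cells and 5.32 ± 1.02 over YFP- cells (edgeR adjusted p = 0.0142 and 0.0370). The call was lost in 1 of 12 fits without a library over YFP+ cells and in 7 of 12 over YFP- cells, and both calls were lost with voom and in the fit of 2 types. The embryonic globins Hba-x and Hbb-y had no count in any library, and Hbb-bh1 was at 10.5, 7.17 and 0 CPM in hematopoietic mesoderm. Of 8 markers of maternal blood, the 4 adult globins, Ptprc and S100a8 were at 0 in all 12 libraries, Lyz2 had 54 counts (12.1 CPM) in hematopoietic mesoderm replicate 1, and Cd52 had 6 counts in endoderm replicate 2. Near-identical globin copies may be undercounted.

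Genes whose pattern was most like a member were ranked by Pearson's r of log2 CPM over the 12 libraries, among 10396 genes. Libraries of a type share their source, so r is a description of the types as much as of the libraries. Nearest to Tal1 were Gata2 (r = 0.98), the membrane linker gene Msn (0.98), Tsc22d2 (0.96), Otud4 (0.95) and Son (0.95). The size of the change was not part of the measure: Msn went from 321 ± 37.8 CPM in endoderm to 607 ± 9.38 CPM in hematopoietic mesoderm. Nearest to Etv2 were Tbx3 (r = 0.95), Cap2 (0.94), Kdr (0.92), Fgf3 (0.92) and Fn1 (0.92), of which Kdr is the VEGF receptor of the sort. Nearest to Fli1 were Zfp711 (r = 0.97), Gadd45g (0.95), Hapln1 (0.94), Tcof1 (0.93) and Kat6a (0.92). Among the 45 pairs of members r was highest for Tal1 and Ets1 (0.92) and for Lmo2 and Runx1 (0.88), and lowest for Lmo2 and Etv2 (0.26).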

How the data were processed

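RNA of 12 sorted populations was extracted with a nanoprep kit, and libraries came from ultra-low-input amplification kits, per the labels' protocols. The authors deposited raw counts of reads per gene, whole numbers that were not normalized, with 38924 versioned Ensembl genes and 5 summary categories per library. Genes took 18.3% to 21.5% of tallied reads. STAR 2.5.0a, Picard, HTSeq 0.6.0, DESeq2 and the build mm10 are named in the submitters' processing notes; the annotation and strand setting are not given in the sources used here. Reads that fit several genes were set apart, so genes with near-identical copies may be undercounted.

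Groups and replicate numbers came from the titles. Symbols were found for 37607 genes. CPM values are counts per 1000000 gene counts, and those per kilobase used merged GENCODE vM21 exons. Counts were tested two-sided in edgeR 4.0.16 (R 4.3.3) with TMM scaling, the default filter and 1 coefficient per type, which left 8 residual degrees of freedom, with Benjamini-Hochberg adjustment over all tested genes. The scripts were tested on simulated data. The members and lists were chosen with earlier results of these data known. Listed genes are named up to 5 per direction and comparison if called with at least 10 CPM in the higher type. Alternatives were RLE scaling, no filter, a mean of at least 5 CPM, DESeq2 1.42.0, limma 3.58.1 voom with quality weights, a fit of 2 types, the replicate number as a block and each library left out. Floors of 3 counts cover counting error only, because the reads were amplified and carry no molecular identifiers.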

Additional observations from a re-analysis of the deposited data

How the results depend on the processing

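Of 756 log2 differences of members under the alternatives, 744 stayed within the spread between libraries (1 SD) of the reported value and 12 moved by more. That spread was wide in hematopoietic mesoderm and YFP+ cells, so a sizeable shift could still lie within it. The sign changed in 18 of the 756. Of these, 15 were between the cardiac fractions and 3 were Etv2 over YFP+ cells, all at reported differences that were not called. Counts of calls depended on the test. Over YFP+ cells, YFP- cells and endoderm, 253, 84 and 800 genes were called in hematopoietic mesoderm, and 0 between the cardiac fractions. DESeq2 called 1505, 1081, 1903 and 115. Voom called 18 over YFP+ cells and 1225 over endoderm, and over YFP- cells 95 of which 76 were higher, where edgeR had 27 higher of 84. A fit of 2 types called 13, 10 and 1258. No filter gave 174 over YFP- cells and 2 between the cardiac fractions, and a mean of at least 5 CPM gave 133 over YFP- cells. With 1 library left out the ranges were 106 to 426, 16 to 247, 180 to 976 and 0 to 1. Leaving out any library moved the first count by over 1.5 times, types outside that comparison included, and it rose without hematopoietic mesoderm replicate 2 (411) or 3 (426).

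Listed genes called were 5, 5, 8 and 0. Over YFP+ cells no filter and the 5 CPM minimum each gave 8, DESeq2 21, voom 2, and the fit of 2 types 1. Over YFP- cells no filter gave 10, DESeq2 18, voom 8 and the fit of 2 types 1. Over endoderm DESeq2 and voom each gave 19 and the fit of 2 types 13. DESeq2 gave 1 between the cardiac fractions. Without 1 library the ranges were 1 to 10, 0 to 10, 3 to 11 and 0 to 0. Members called were 5, 1, 9 and 0. Voom and the fit of 2 types, which tested 9 members, gave 0 over YFP+ cells; over YFP- cells no filter gave 2 and DESeq2 and voom 4 each; DESeq2 gave 1 between the cardiac fractions. Without 1 library the ranges were 1 to 5, 0 to 2, 3 to 9 and 0 to 0. Of 341 values of named listed genes, 240 kept their call, 101 lost it and 0 changed sign.

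Same-numbered libraries of different types share a date stamp whose meaning is not stated, and their deviations from the type means correlated between -0.0136 and 0.0274, so they are not shown to pair. With the replicate number as a block, 133, 31 and 545 genes were called in the 3 comparisons, 3, 0 and 6 listed genes, and 3, 0 and 7 members. The replicate block ended all 5 named calls over YFP- cells (Sox7, Cdh5, Egfl7, Flt1 and Myb), those of Etv5 and Egfl7 over YFP+ cells and those of Ehf and Egfl7 over endoderm. The causes of these changes were not tested, beyond the fewer samples or genes of the smaller fits. Depth limits Erg, Fev and Lyl1 outside hematopoietic mesoderm, where several libraries had 3 counts or fewer.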
